A study of Mus musculus with 6 samples.

Results

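The genes described here were 32 imprinted genes of the mouse, named one by one as well-known members of 15 imprinted domains, among 55413 annotated genes of all types. Each was set against the merged peaks of H3K56ac (histone H3 acetylated at lysine 56) in V6.5 mouse embryonic stem cells (mESCs). A peak was counted at a start when any base of it lay within 1 kb of a transcript start (TSS) of the gene. Such a peak was found at 9 of the 32 genes (28.1%), beside 17.6% of all genes and 35.7% of protein-coding genes.

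Imprinted genes are expressed from the maternal or the paternal copy alone in at least some tissues, and most lie in clusters. A cluster is governed by an imprinting control region whose DNA is methylated in the egg or the sperm, a germline differentially methylated region (DMR), and at most maternally methylated DMRs the start of a paternally expressed gene or noncoding RNA lies in the DMR itself. In embryonic stem cells the zinc finger protein ZFP57 binds its short core motif on the methylated copy and keeps the methylation in place. H3K56ac marks starts and enhancers in these cells, and SIRT6 is a deacetylase that removes it.

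The mESCs were grown on feeder cells and carried a lentiviral scrambled shRNA (Scramble) or an shRNA against Sirt6 (Sirt6KD), and the cells transduced with either were selected with puromycin. From each group 2 H3K56ac ChIP libraries and 1 input DNA library were sequenced, 6 libraries in all. The values here rest on the positions of 11106 peaks, merged over the libraries on mm10, with no height, no read count and no library of origin, so nothing in it could be compared between Scramble and Sirt6KD and no value here has a replicate. Reads were not split by parental copy, so a peak could lie on the expressed copy, on the silent copy or on both. The expressed copy, the domain and the presence of a germline DMR at a start are textbook assignments and were not measured in these cells. Ube3a, for example, is known to be imprinted in neurons. The stem cell label was met by the peaks: 8 of 8 embryonic stem cell markers, among them Pou5f1, Nanog and Sox2, had a peak at a start, with widths from 2924 bp to 9909 bp. Of 10 feeder fibroblast markers 0 had one, which allows a share of up to 30%. Over all protein-coding genes the share was 35.7%.

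The sequences that set 3 of these peaks apart were repeated short motifs, which are shown first because they can be read without any peak height. The peak at Peg3, which encodes a zinc finger protein, lay in the first part of the gene (chr7:6727931-6729806) and also stood upstream of the divergent start of Usp29, a gene of the ubiquitin-specific peptidase family. It held 8 copies of AAGATGGC, the core of the binding site of YY1, a zinc finger factor known to bind an array of sites in the Peg3 DMR. This motif was chosen after the data had been seen. The 8 sites are given on the minus strand, the strand of Peg3, where each core reads GCCATCTT in capitals.
Peg3 site 1 (chr7:6729578-6729607): acccagttggcGCCATCTTggagggtggag
Peg3 site 2 (chr7:6729472-6729501): gcccgcttggcGCCATCTTgaaatgaccgc
Peg3 site 3 (chr7:6728869-6728898): cccatcctggcGCCATCTTtcctggccaag
Peg3 site 4 (chr7:6728728-6728757): cctaccctgacGCCATCTTtgctggctgat
Peg3 site 5 (chr7:6728440-6728469): cccaatttggcGCCATCTTtgccagcaata
Peg3 site 6 (chr7:6728391-6728420): atggtgcagacGCCATCTTgaatgacaggc
Peg3 site 7 (chr7:6727953-6727982): gcccacctgacGCCATCTTtgctgacgttt
Peg3 site 8 (chr7:6727931-6727960): tgacgtttctggtgcagtaGCCATCTTgaa

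The Peg3 sites spanned 1655 bp from the first core to the last, with steps between neighbouring cores from 30 bp to 603 bp, and sites 7 and 8 overlap as printed. All 8 cores pointed the same way, and 7 of 8 were preceded by a C, which makes a CpG with the first base of the core. Only 2 of the 11106 peaks held as many copies, this peak included, and 10.7% of all peaks held at least 1. Among the 1812 peaks within 20% of its width, this was the single peak with so many (0.0552%). Around all gene 5′ ends, within 1 kb on either side, 15.9% of windows held the motif.

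The second array lay in the peak of Snrpn (chr7:60003522-60005170). Snrpn encodes a small nuclear ribonucleoprotein and begins at the imprinting centre that governs the Prader-Willi and Angelman genes. The peak held 9 copies of TGCCGC, the ZFP57 core, on either strand. They are given on the minus strand, the strand of Snrpn, with the core or its reverse complement GCGGCA in capitals.
Snrpn site 1 (chr7:60005108-60005137): acctgagccattGCGGCAagactagcgcag
Snrpn site 2 (chr7:60004855-60004884): gggtgtgttagtGCGGCAcctgcgtgtaac
Snrpn site 3 (chr7:60004776-60004805): caggagctgtgtTGCCGCagcgtgggggct
Snrpn site 4 (chr7:60004700-60004729): tcagagctgtgtTGCCGCgacttgtaggtc
Snrpn site 5 (chr7:60004589-60004618): tagaagttctgtTGCCGCtgcaggaacctg
Snrpn site 6 (chr7:60004507-60004536): caggagctctgtTGCCGCagcctgtgggct
Snrpn site 7 (chr7:60004409-60004438): tgggaactctgcTGCCGCagtgtcgcagtc
Snrpn site 8 (chr7:60004346-60004375): agggagctctgtTGCCGCagcagcctatgt
Snrpn site 9 (chr7:60004167-60004196): ctggagtgctgtTGCCGCggcctgcgggct

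Of these Snrpn sites 7 read TGCCGC on the gene's strand and 2 read GCGGCA, and 6 of the 7 were preceded by the same bases, tgt. The sites spanned 941 bp, and the median step from one to the next was 90 bp. At least as many copies were found in 3 of 11106 peaks (0.0270%), this one included, and 9 was the highest number in any peak. Among 1681 peaks within 20% of its width it was the single one. Over all peaks 31.8% held 1 copy or more.

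The third array lay at Nespas, an antisense noncoding RNA inside the Gnas gene (peak chr2:174294501-174296293). By textbook knowledge Nespas starts at the germline DMR of that domain, whose limits were not used here. The 5 ZFP57 cores of the peak are given on the minus strand, the strand of Nespas. Sites 1 and 2 overlap, as do sites 4 and 5.
Nespas site 1 (chr2:174296100-174296129): ttttttttgtttTGCCGCgcgcccgcggca
Nespas site 2 (chr2:174296088-174296117): tgccgcgcgcccGCGGCAcgcgcacaccgc
Nespas site 3 (chr2:174295939-174295968): ataaagcaggctGCGGCAattatgcaccat
Nespas site 4 (chr2:174295889-174295918): atgcatgctgtgTGCCGCggcagatttaat
Nespas site 5 (chr2:174295885-174295914): atgctgtgtgccGCGGCAgatttaattctc

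The 5 Nespas sites fell within 215 bp of one another, and only 7 of the 11106 peaks held as many in any stretch of 300 bp. By that measure the Snrpn peak held 4 ZFP57 cores, reached by 31 peaks, and the Peg3 peak 2 YY1 cores, reached by 51. Over the whole peak 60 peaks (0.540%) had at least 5 ZFP57 cores, and the Peg3 peak was another of them, with 5. Among the 1755 peaks within 20% of the width of the Nespas peak, 15 (0.855%) had at least 5. Kcnq1ot1, the antisense RNA that silences the Kcnq1 domain, had 3 ZFP57 cores in its peak. As many were held by 3.93% of all peaks and by 2.66% of the 1579 peaks within 20% of its width. These 3 cores lay within the following 300 bp (chr7:143295558-143295857, minus strand), a stretch chosen for these cores, which also held 31 CpG. The cores are in capitals.
Kcnq1ot1 (chr7:143295558-143295857): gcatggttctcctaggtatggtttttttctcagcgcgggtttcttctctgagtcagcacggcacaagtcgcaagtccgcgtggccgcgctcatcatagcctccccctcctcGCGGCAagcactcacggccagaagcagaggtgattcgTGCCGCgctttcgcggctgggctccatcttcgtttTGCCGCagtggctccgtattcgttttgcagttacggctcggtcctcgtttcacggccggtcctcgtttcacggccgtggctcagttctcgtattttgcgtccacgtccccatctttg

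Meg3, the maternally expressed noncoding RNA of the Dlk1-Dio3 domain, had a narrow peak of 237 bp (chr12:109542313-109542549, plus strand) in an exon, without a ZFP57, YY1 or CTCF core. It is shown whole, with its 5 CpG in capitals. Its observed over expected CpG ratio was 0.56, below the 0.83 of the Kcnq1ot1 peak and near the median of 0.51 over all peaks.
Meg3 (chr12:109542313-109542549): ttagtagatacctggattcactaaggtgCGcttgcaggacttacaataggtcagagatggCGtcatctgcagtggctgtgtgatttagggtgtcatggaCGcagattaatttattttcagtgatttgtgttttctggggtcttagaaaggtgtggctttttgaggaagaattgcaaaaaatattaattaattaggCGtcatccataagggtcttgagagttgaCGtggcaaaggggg

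The remaining start peaks carried few motifs. The Ube3a and Zrsr1 peaks held 2 ZFP57 cores each, and 10.9% of all peaks held at least as many. Among peaks within 20% of their width the shares were 26.3% for Ube3a and 27.1% for Zrsr1. The Phlda2 and Impact peaks held 0. The core of CTCF, the insulator factor, was searched as GGNGGCAG on both strands. It was in 0 of the 8 distinct peaks at starts of these genes, against 37.8% of all peaks, and a count of 0 allows a share of up to 37.5%. Around the 5′ ends it was in 17 of 32 genes (53.1%), against 48.5% of all genes. A match describes letters in the reference genome and is not a bound site, and no match says only that the letters are not there. In windows of 1 kb on either side of the gene's 5′ end the ZFP57 core was in 19 of the 32 genes (59.4%) against 28.6% of all genes. The core holds a CpG, and the 2 groups differ in CpG content. An observed over expected CpG ratio above 0.6 at a start was found for 20 of the 32 genes and for 13991 of all 55413. No share over genes of like CpG content was computed. The ZFP57 core was in 8 of 14 genes with a germline DMR at a start (57.1%) and in 11 of 18 without one (61.1%). These windows lie at the outermost 5′ end, which need not be the start at the DMR. The window of Snrpn, for example, held 0 cores, and the Snrpn peak with 9 lay 135049 bp away. The 2 shares therefore cannot tell whether the core is more frequent at the DMRs themselves.

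**Figure D1:**
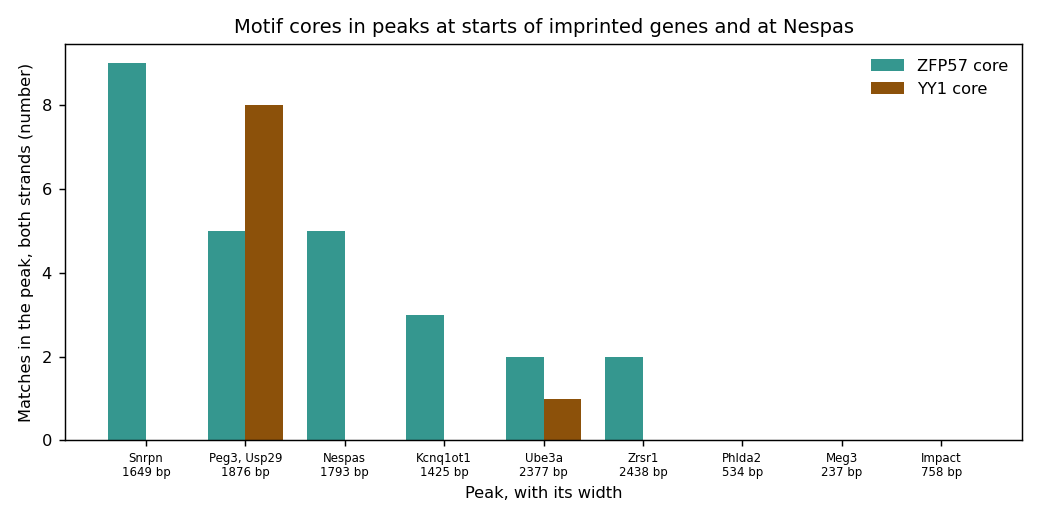
Number of ZFP57 cores (green) and YY1 cores (brown) on both strands of each H3K56ac peak at a start of an imprinted gene and of the peak at Nespas, with the peak width in bp under each name. The Snrpn peak holds 9 ZFP57 cores, the Peg3 peak 5 together with 8 YY1 cores, and the Phlda2, Meg3 and Impact peaks hold neither.

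The share of imprinted genes with a peak at a start, 28.1% (Wilson 95% interval 15.6 to 45.4), lay between the backgrounds. Over all genes it was 17.6% (9754 of 55413), and over protein-coding genes 35.7% (7836 of 21938). Both backgrounds lay inside the interval, which covers counting error only. Of the 26 protein-coding imprinted genes 7 had a start peak (26.9%, 13.7 to 46.1). Of the 6 noncoding ones 2 did, Kcnq1ot1 and Meg3 (33.3%, 9.68 to 70.0), beside 11.3% of all genes of the same noncoding types. The 9 genes shared 8 distinct peaks, since Peg3 and Usp29 had the same one.

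By expressed copy the shares were close. A start peak was present at 6 of 19 paternally expressed genes (31.6%, 15.4 to 54.0), namely Peg3, Usp29, Snrpn, Kcnq1ot1, Zrsr1 and Impact. It was present at 3 of 11 maternally expressed genes (27.3%, 9.75 to 56.6), Ube3a, Phlda2 and Meg3. Gnas and Grb10, whose expressed copy depends on isoform or tissue, had none. The intervals overlapped almost throughout. Both shares lay between the 17.6% of all genes and the 35.7% of protein-coding genes.

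By germline DMR the values were farther apart. All 6 paternally expressed genes with a start peak were among the 14 genes that have a start at a maternally methylated germline DMR (42.9%, 21.4 to 67.4). Of the 18 other genes 3 had a start peak (16.7%, 5.84 to 39.2), and these were the maternally expressed ones. The 7 paternally expressed genes without a DMR at a start, Igf2, Ndn, Magel2, Mkrn3, Dlk1, Rtl1 and Dio3, had 0. The Wilson interval of that count reaches 35.4% and so holds the 17.6% of all genes. All 7 are protein-coding, and the 35.7% of protein-coding genes lies just above this limit. With 3 counts as the limit a count of 0 allows up to 42.9%. The intervals of both shares overlapped, and Peg3 and Usp29 count as 2 genes for 1 peak. At a distance of 500 bp both drop out, which leaves 4 of the 14 genes and 3 of the 18. The genes with a DMR start that had no start peak were Airn, Peg10, Mest, Plagl1, Nnat, Slc38a4, Gnas and Grb10. Gnas is among them although the Nespas peak lay in its intron, 1566 bp from its own nearest start. The limits of the DMRs were not used, so the counts are of gene starts and not of DMRs with a peak.

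**Figure D2:**
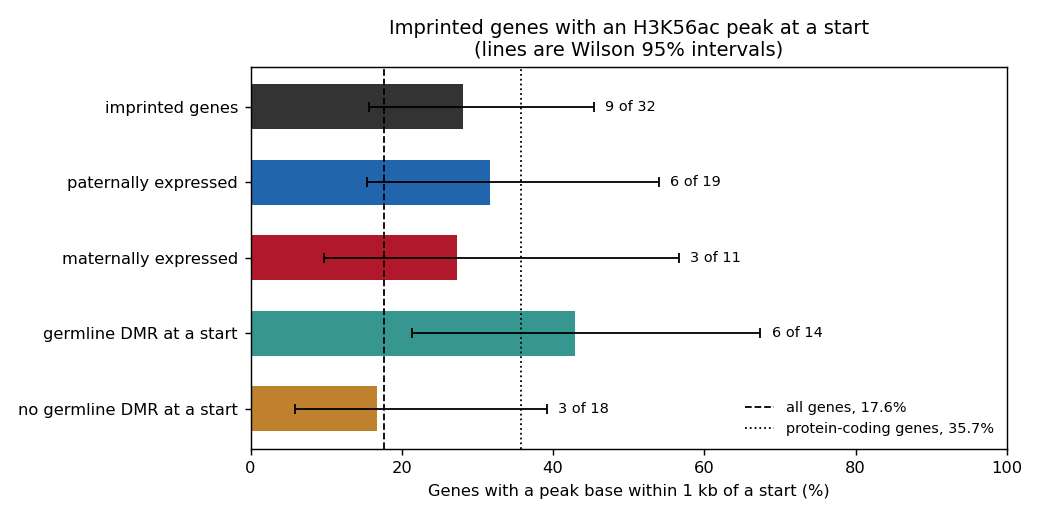
Percent of imprinted genes with an H3K56ac peak base within 1 kb of a start (bars), with Wilson 95% intervals (lines) and the number of genes beside each bar. The dashed and dotted lines are the shares over all genes (17.6%) and protein-coding genes (35.7%). The bar for genes with a germline DMR at a start stands at 42.9% and that for the others at 16.7%, with overlapping intervals.

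Where the peaks lay around the starts differed between genes. The 1425-bp peak of Kcnq1ot1 (chr7:143295109-143296533) began 16 bp downstream of its start and reached 1440 bp into the RNA, inside an intron of Kcnq1, the potassium channel gene on the other strand. The 1649-bp Snrpn peak reached from 59 bp upstream to 1589 bp downstream of the Snrpn start that lies at Snurf, its partner reading frame. The longest annotated Snrpn transcript begins 135049 bp upstream of the edge of this peak, with no nearer peak. The 1876-bp Peg3 peak began 613 bp downstream of a Peg3 start, in an intron, and its nearer edge lay 772 bp upstream of the start of Usp29. The 758-bp peak of Impact, a regulator of translation, reached from 94 bp upstream to 663 bp downstream of its start. In these 4 peaks most of the width lay inside the transcribed part of the gene (for the shared peak, that of Peg3). This was not particular to paternally expressed genes. Downstream of the nearest start lay 100% of the peak at maternally expressed Meg3, 51.5% at Ube3a and 48.9% at Phlda2, and 36.6% at paternally expressed Zrsr1. The median over all genes with a start peak was 53.8%.

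The 2438-bp peak of Zrsr1 (chr11:22971669-22974106) reached from 336 bp upstream to 2101 bp downstream of the gene's 5′ end. It lay from 1546 bp upstream to 891 bp downstream of an internal start, the one nearest to its midpoint. Zrsr1 is a splicing factor retrogene in an intron of Commd1, and the nearest start to this peak's midpoint was one of Commd1, 28 bp away, so the peak cannot be assigned to either gene. The 2377-bp peak of Ube3a (chr7:59227670-59230046), the ubiquitin ligase lost in Angelman syndrome, was nearly symmetric, from 1152 bp upstream to 1224 bp downstream. At Phlda2, which limits placental growth, a 534-bp peak (chr7:143502733-143503266) reached from 116 bp upstream to 417 bp downstream of the 5′ end. It lay 273 bp upstream to 260 bp downstream of an internal start. The 237-bp Meg3 peak lay 45 bp to 281 bp downstream of an internal start, and 1312 bp from the gene's 5′ end.

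Each peak was measured from the gene's start nearest to it. Of several starts inside a peak, the one nearest to its midpoint was taken. The share of the peak that lay downstream of this start was 100% at Peg3, Kcnq1ot1 and Meg3 and 96.4% at Snrpn. It was 87.6% at Impact, 51.5% at Ube3a, 48.9% at Phlda2, 36.6% at Zrsr1 and 0% at Usp29, for which the same peak as that of Peg3 lies upstream. The median over the 9 genes was 87.6%, beside 53.8% over all 9754 genes with a start peak. Of the 9 genes 4 (44.4%) had over 90% downstream, as did 24.9% of all genes with a start peak. Measured from the gene's 5′ end, a choice added after seeing the data, the share was 86.2% at Zrsr1 and 78.3% at Phlda2. The medians were then 88.5% over the 9 genes and 68.1% over all genes with a start peak, and 44.4% and 38.8% of them had over 90% downstream.

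**Figure D3:**
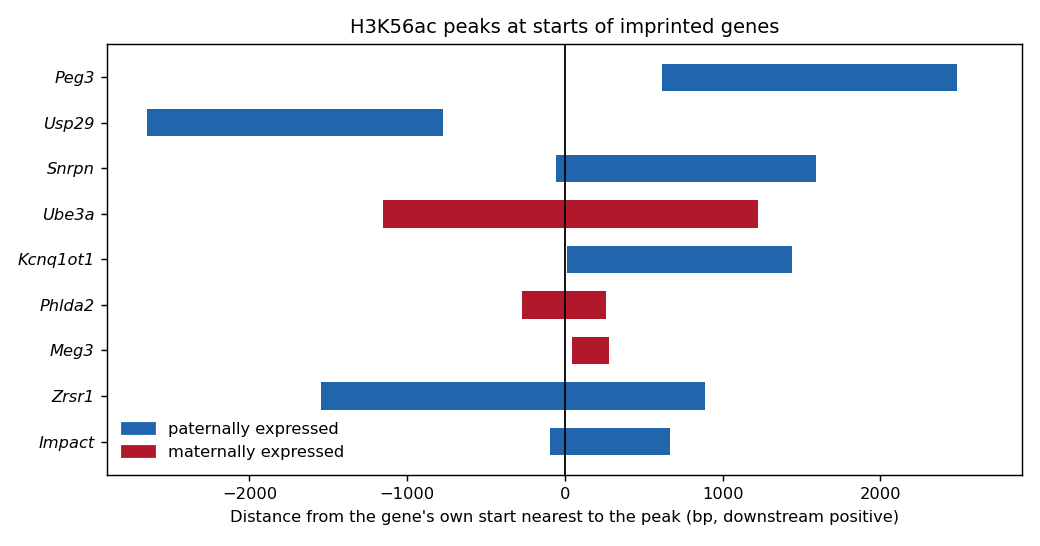
Extent of each H3K56ac peak (bar) relative to the gene's own TSS nearest to it (vertical line at 0), in bp with downstream positive, for the 9 imprinted genes with a start peak. Blue marks paternally and red maternally expressed genes. The bars of Peg3, Kcnq1ot1 and Meg3 lie wholly downstream, and the same peak drawn for Usp29 lies wholly upstream.

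In width the start peaks lay within the usual range. Their median over the 9 genes was 1649 bp (237 to 2438), and over the 8 distinct peaks 1537 bp. Over all genes with a start peak the median was 1368 bp, with quartiles of 765 bp and 2217 bp. The widest, at Zrsr1, was matched or exceeded by 19.4% of genes with a start peak. The narrowest, at Meg3, was as narrow as 3.03% of all peaks. All were narrower than the narrowest peak at an embryonic stem cell marker, 2924 bp at Nanog.

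Peaks elsewhere in a gene or up to 20 kb on either side were counted together with the start peaks. Of the 32 genes 13 had any such peak in reach (40.6%, 25.5 to 57.7), against 33.3% of all genes and 52.5% of protein-coding genes. The genes without a start peak that gained one in this way were Zim1, Copg2, Gnas and Nnat. Imprinted genes were longer than most, with a median length of 25.1 kb against 3.33 kb over all genes, and a longer gene offers more room for such a peak.

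Just outside the limit of 1 kb stood 2 of these genes. Zim1, the maternally expressed zinc finger gene beside Peg3, had a 188-bp peak (chr7:6697658-6697845) 1208 bp upstream of its start, of which 45.7% was repeat-masked sequence. Gnas, which encodes the stimulatory G protein alpha subunit, had the 1793-bp Nespas peak 1566 bp from its nearest start. The midpoint of that peak lay 8 bp from the start of Nespas. Another Gnas peak of 305 bp (chr2:174288959-174289263) lay in an intron shared with Nespas, 2.50 kb from the start of Gm27899. Just inside the limit stood Usp29 at 772 bp and Peg3 at 613 bp.

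Peaks within introns were seen at Usp29 and Copg2. The Usp29 peak was 644 bp wide (chr7:6770784-6771427) and 35.1 kb from its nearest start, with Gm44863 the gene whose start was nearest (18.1 kb from the midpoint). The peak of Copg2, a coatomer subunit gene, was 436 bp wide (chr6:30831057-30831492) and 64.9 kb from its nearest start, and 58.9% of it was repeat-masked. Their CpG ratios, observed over expected from base composition, were 0.06 and 0.14, against a median of 0.51 over all peaks. Nnat, the neuronatin gene in an intron of Blcap, had no peak of its own in 4.05 kb, but the start of Blcap had one of 2884 bp. A further peak at a start of Commd1, the host of Zrsr1, was 735 bp wide.

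Read by domain, 9 of the 15 domains held at least 1 peak between 20 kb before the first and 20 kb after the last of their genes here, and 6 held none. The domains together covered 6.25 Mb with 21 peaks, or 3.36 per Mb, beside 4.07 per Mb over the assembled chromosomes. This value rests on the Snrpn-Ube3a domain, which took 3.23 Mb with 2 peaks. Without it the other 14 domains had 19 peaks in 3.02 Mb, or 6.29 per Mb, above the chromosomes as a whole. The domains were drawn around genes and the chromosomes were taken whole, so unlike regions stand side by side. Some of the counted peaks lay nearest to starts of other genes, such as Cct4, Osbpl1a and Blcap. In the Kcnq1 domain Kcnq1ot1 and Phlda2 had start peaks. Cdkn1c, a cyclin-dependent kinase inhibitor, lay 41.7 kb from the nearest peak, and Ascl2, a transcription factor of the placenta, 38 kb. Further peaks of this domain were at Tspan32os (1517 bp) and in an intron of Cd81, nearest to a start of R74862 (2352 bp).

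In the Dlk1-Dio3 domain all 3 peaks lay apart from the paternally expressed genes. Beside the internal Meg3 peak, one of 312 bp (chr12:109529929-109530240) lay between Dlk1 and Meg3, 10.8 kb upstream of the Meg3 start and nearest to the start of Gm27528, 0.808 kb from the midpoint. The limits of the intergenic DMR of this domain were not used here, so the place of that peak relative to it is not given. The widest, 3038 bp (chr12:109947133-109950170), was intergenic and 36.9 kb from the nearest start, that of 4930511J24Rik. Dlk1, a Delta-like membrane protein gene, was 70.1 kb from the nearest peak, Rtl1 57.8 kb and Dio3, a thyroid hormone deiodinase gene, 138 kb. The noncoding Rian, a host of small nucleolar RNAs, and Mirg, a host of microRNAs, were 61.4 kb and 187 kb away.

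The Snrpn-Ube3a domain spanned 3230 kb and held 2 peaks, the start peaks of Snrpn and Ube3a. Ndn, Magel2 and Mkrn3, paternally expressed genes at its far end, shared a stretch of 3.56 Mb without a peak, which began at the edge of the Snrpn peak. It ranked 66 among 11085 stretches between neighbouring peaks (0.595% as long). Each of the 3 genes was more than 1 Mb from a peak, with 1210 kb for Ndn, 1180 kb for Magel2 and 1140 kb for Mkrn3.

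**Figure D4:**
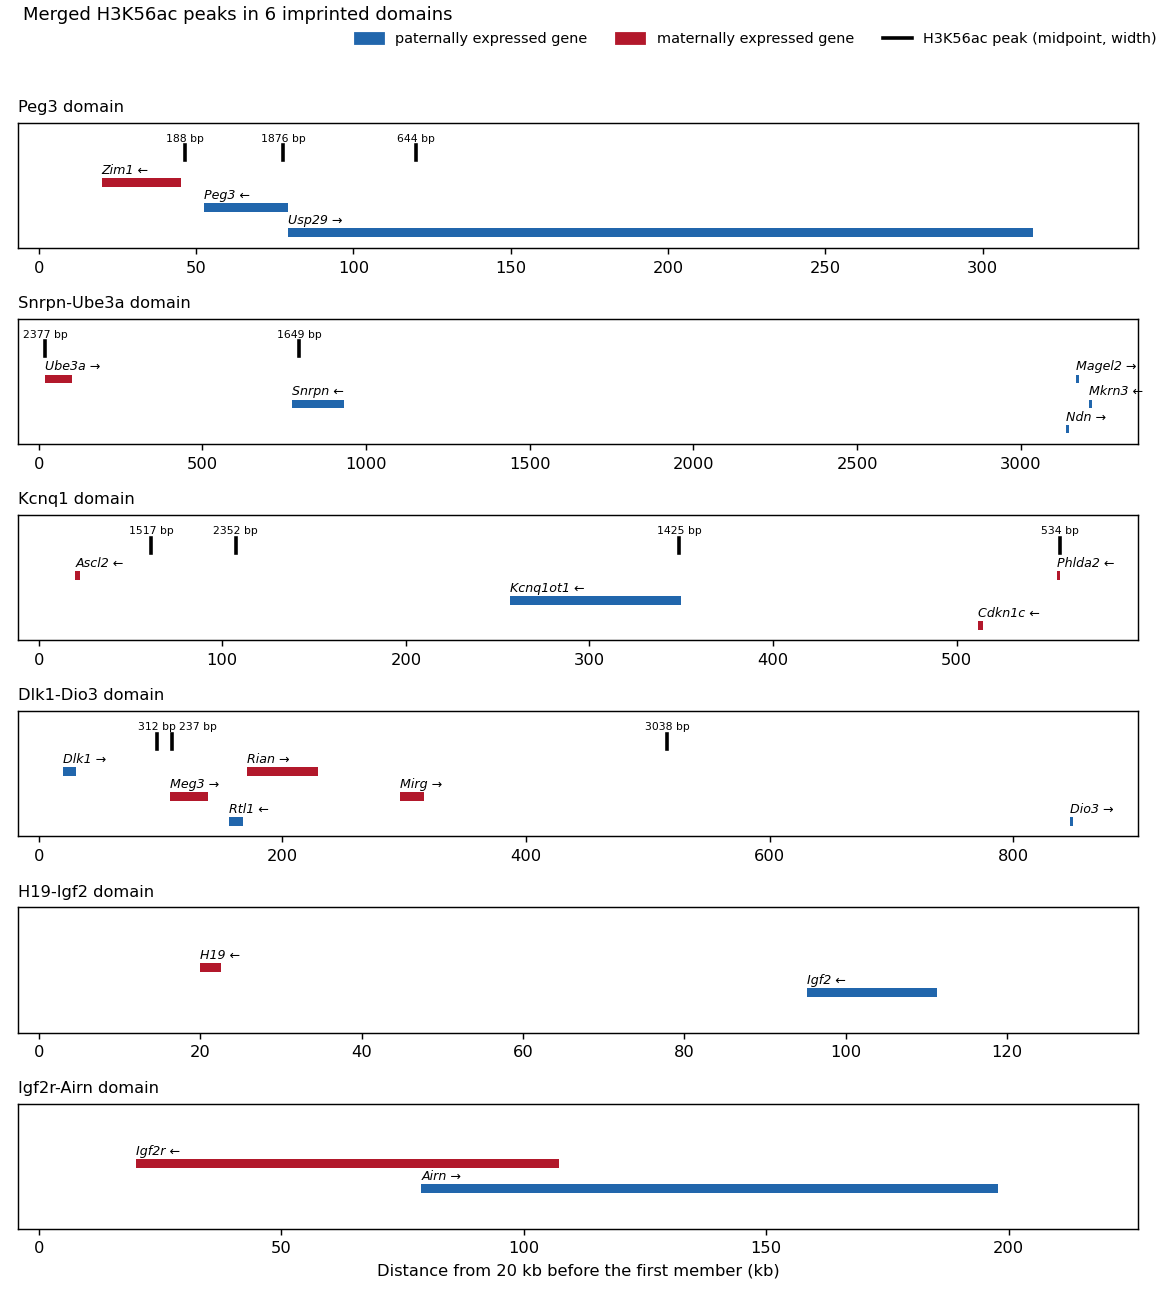
Maps of 6 imprinted domains, in kb from a point 20 kb before the first gene. Blue bars are paternally and red bars maternally expressed genes, arrows give the strand, and black ticks are midpoints of H3K56ac peaks with their widths. Ndn, Magel2 and Mkrn3 lie far to the right of the last peak of their domain, and the H19-Igf2 and Igf2r-Airn domains hold no peak.

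Within these limits no peak was found in the domains of H19-Igf2, Igf2r-Airn, Peg10, Plagl1, Grb10 and Slc38a4. The edge nearest to Grb10 belonged to a 4360-bp peak at the start of Ddc, its imprinted neighbour, 47.3 kb from the gene and outside the 20 kb taken here. H19, a noncoding RNA, was 42.6 kb and Igf2, the growth factor gene it shares enhancers with, 119 kb from the nearest peak. Igf2r, the receptor that clears IGF2, was 140 kb away, and Airn, the antisense RNA that silences it, 93.3 kb. Plagl1, a zinc finger factor gene, and Grb10, an adaptor of insulin and IGF receptors, were nearer, at 51.0 kb and 55.4 kb. Peg10, a retrotransposon-derived placental gene, was 286 kb and Slc38a4, an amino acid transporter gene, 309 kb away. Mest, with 1 intronic peak of Copg2 in its domain, was 89.0 kb away.

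In median distance to a peak the imprinted genes lay between all genes and coding genes. The median distance from the nearest start to the nearest peak was 53.2 kb over the 32 genes, 74.1 kb over all genes and 22.5 kb over protein-coding genes. Over 100 kb away were 9 imprinted genes (28.1%), a lower share than the 44.7% of all genes and close to the 29.7% of protein-coding genes.

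The shares with a start peak were also set beside the CpG content of the starts. Over all genes, 56.5% of those with a CpG ratio over 0.6 at a start had a start peak, and 4.47% of those at 0.6 or less at every start. Among the imprinted genes the shares were 6 of 20 (30%, 14.5 to 51.9) and 3 of 12 (25%, 8.89 to 53.2). Several genes stood close to the limit, and with 0.55 in its place, tried after seeing the data, the shares were 8 of 24 (33.3%, 18 to 53.3) and 1 of 8 (12.5%, 2.24 to 47.1). With 0.65 they were 4 of 18 (22.2%) and 5 of 14 (35.7%), so their order depended on the limit. The 3 genes with a peak and a low ratio were Kcnq1ot1 (0.45), Snrpn (0.57) and Meg3 (0.58). High ratios without a start peak were found at Grb10 (1.06), Igf2r (0.90), Cdkn1c (0.90), Gnas (0.89) and Dio3 (0.88). The ratio covered 500 bp before and after each start and the highest was used, so a gene with many starts had more chances of a high one.

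**Figure D5:**
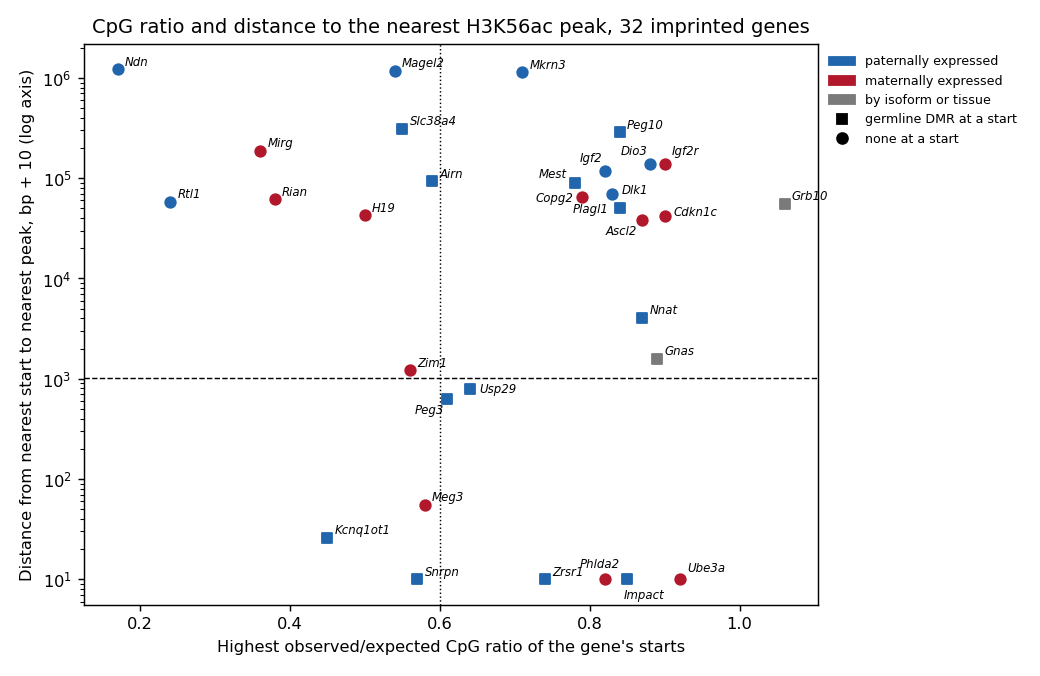
Highest CpG ratio of the starts of each of the 32 imprinted genes (horizontal axis) against the distance in bp from its nearest start to the nearest H3K56ac peak, plus 10 so that 0 can be drawn (vertical log axis). Squares have a germline DMR at a start and circles have none, blue is paternally, red maternally expressed and grey depends on isoform or tissue. The dashed line is the limit of 1 kb and the dotted line a ratio of 0.6, and most genes right of the dotted line lie above the dashed one.

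Few stretches of the starts occurred more than once in the genome. Since the reads were kept only when they aligned to 1 place, every 75-base stretch starting within 1 kb of a start was looked up in the genome. Over the 32 genes between 90% and 100% of them occurred once, and over the 23 genes without a start peak between 98.1% and 100%.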

How the data were processed

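H3K56ac ChIP-seq was performed in V6.5 mESCs with 2 H3K56ac libraries and 1 input library per group, mapped to groups by their titles. The authors trimmed single-end reads, aligned them with bowtie to mm10 keeping reads with 1 reportable place, removed duplicates, called peaks with MACS2, dropped blacklisted regions and merged overlapping peaks. FastQC, Bowtie, SAMtools and deepTools are named in the submitters' processing notes. The deposited file gives positions (unit: other) of merged peaks, and its name and score columns each hold 1 value, so strength, depth and library of origin are not known and Scramble and Sirt6KD were not compared. Keeping uniquely placed reads can leave identical repeats bare, so the share of unique 75-base stretches was computed.

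Positions were counted from 1 and joined to all transcript starts of GENCODE M21 genes on assembled chromosomes of GRCm38, the assembly behind mm10. The text names all 32 genes, those of the further lists with a start peak, and the gene nearest to a described peak. The members and lists were chosen with earlier results of these data known, so no test was run, and shares are given with Wilson 95% intervals beside the same shares over all genes. For a count of 0 the upper limit is that of 3 counts or of the Wilson interval, as stated. The expressed copy and germline DMRs came from textbook knowledge, and Gnas and Grb10 were moved to the genes with a DMR start after the counts had been seen. The CpG ratio covered 500 bp before and after a start, and motifs were searched on both strands of the reference genome. The interval joins and motif counts were tested on made-up data. Alternatives covered the distance, the set of starts, peak width and the flank. Calculations used Python 3.11.15 with numpy 2.4.6, pandas 2.3.3, scipy 1.17.1 and matplotlib 3.10.9.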

Additional observations from a re-analysis of the deposited data

How the results depend on the processing

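Of 54 alternative values over 10 results, 51 stayed close to the main value (a count or rate within 1.5 times of it, an equal median width, a share inside its interval). This limit is wide for small groups. A fall from 6 genes to 4 or from 3 to 2 counted as close, as did low-CpG shares of 12.5% and 35.7% beside 25%. Moving Gnas and Grb10 between the groups could not change the counts of genes with a peak, as neither had a start peak. The tally is therefore no measure of robustness. The number of imprinted genes with a start peak, 9, ranged from 7 to 11. A distance of 500 bp or the use of peak midpoints left 7, without Peg3 and Usp29, and 2 kb or 3 kb gave 11, with Gnas and Zim1. The gene's 5′ end alone left 7, without Snrpn and Meg3, and starts of basic transcripts alone left 7, without Impact and Meg3. The share over all genes moved from 16.2% to 19.5% under these settings. The median start peak width of 1649 bp moved to 1425 bp with 500 bp and to 1876 bp with the 5′ end alone. Of the alternatives chosen after seeing the data, leaving out the Snrpn-Ube3a domain moved the peaks per Mb from 3.36 to 6.29, counting each peak once gave 8, and peaks nearest to a start of an imprinted gene alone gave 7, without Snrpn and Zrsr1. With Gnas and Grb10 counted without a DMR start, 6 of 12 genes with a DMR start (50.0%) and 3 of 20 others (15.0%) had a start peak. With the groups of 14 and 18 kept, a distance of 500 bp or peak midpoints gave 4 and 3 genes, so the groups came closer. A distance of 2 kb or 3 kb gave 7 and 4, and the 5′ end or basic transcripts alone gave 5 and 2. Peaks of at least 320 bp gave 6 and 2. Any peak within 50 kb was found for 19 genes in place of 13. No paired analysis was possible because nothing in the deposited positions can be traced to a library, and for the same reason no library could be left out. Peak calls depend on depth, which the file does not give, so a gene without a peak may carry the mark at a lower level.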

Other observations

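A further list of 27 imprinted genes gave much the same share as the 32 genes, with 8 at a start peak (29.6%, Wilson 95% interval 15.9 to 48.5, beside 17.6% of all genes and 35.7% of protein-coding genes). They were Mcts2 (2078 bp), Blcap (2884 bp), Nespas (1793 bp), Jade1 (2559 bp), Inpp5f (324 bp), Ddc (4360 bp), Commd1 (2438 bp) and Trappc9 (562 bp). Blcap, Nespas, Commd1 and Ddc are neighbours or hosts of genes described above, and the Commd1 peak is the one at Zrsr1, so the lists are not independent. H13, the host gene of the retrogene Mcts2, lay 1.42 kb from a peak, just outside the limit.

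Among 10 factors that set or maintain imprints, 7 had a start peak (70.0%, 39.7 to 89.2, beside 35.7% of protein-coding genes), with widths from 744 bp to 3934 bp. These were Zfp57 and Zfp445, the zinc finger genes that recognise imprinted DMRs, Trim28, their corepressor, Dnmt1 and Uhrf1 of maintenance methylation, Dnmt3l, the cofactor of de novo methylation, and Ctcf. Dppa3, Setdb1 and Dnmt3a had none, and lay 16.0 kb, 41.0 kb and 53.1 kb from the nearest peak.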
